A study of Homo sapiens with 16 samples.

Results

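The APOBEC3 family consists of 7 genes, APOBEC3A, APOBEC3B, APOBEC3C, APOBEC3D, APOBEC3F, APOBEC3G and APOBEC3H, whose expression was followed while T24 bladder cancer cells were made resistant to gemcitabine. The members were taken by gene symbol from the deposited expression table, which holds 39007 genes, and all 7 were found in it. RNA was sequenced from 16 libraries, 4 for each of the phases P0 (parental), P3 (early), P7 (intermediate) and P15 (late). The titles of all 16 libraries hold the letters NT, which the study's methods do not explain. The methods also do not state whether gemcitabine was present when the RNA was taken. T24 is a human bladder cancer cell line. P0 is the parental T24 culture, and P3, P7 and P15 are phases of GRC1, a gemcitabine-resistant line derived from it by repeated treatment, in which each phase ended with cells that survived the drug. Gemcitabine is a deoxycytidine analogue used in chemotherapy. All libraries share the T24 background and GRC1 is a single line, and nothing says that the 4 libraries of a phase came from separate cultures, so the p-values measure the spread between these libraries, which may be technical.

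APOBEC3 enzymes are cytidine deaminases, which turn cytosine into uracil in single-stranded DNA. They are known as innate defence factors that act on retroviruses and retroelements, and APOBEC3A and APOBEC3B are also known as sources of C-to-T and C-to-G mutations in tumours, bladder cancer among them. APOBEC3G, APOBEC3F, APOBEC3D and APOBEC3B carry a pair of deaminase domains, and APOBEC3A, APOBEC3C and APOBEC3H carry a single one. Many members are interferon-inducible, and the 7 genes lie side by side on the plus strand of chromosome 22. On GRCh38, with GENCODE version 44, APOBEC3A began at position 38952741 and APOBEC3H ended at position 39104067, a span of 151.3 kb. In between, APOBEC3B lay at chr22:38982347-38992804, APOBEC3C at chr22:39014257-39020352, APOBEC3D at chr22:39021113-39033277, APOBEC3F at chr22:39040604-39055972 and APOBEC3G at chr22:39077067-39087743.

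The RefSeq promoter table (GRCh38.p14, 250 bases before to 50 bases after the start of a gene) held APOBEC3H among the 7 members. Its window is chr22:39096994-39097293 on the plus strand, and it is printed beside the windows of 3 other restriction factors. These are IFITM3 (chr11:320811-321110, minus strand) and BST2 (chr19:17405581-17405880, minus strand), which fell between P0 and late phase P15, and HERC5 (chr4:88456869-88457168, plus strand), with a log2 fold change of 0.82 between P0 and P15. Each is printed on the strand of its gene, 5′ to 3′. HERC5 was chosen after its values were seen. Capitals mark matches to the core of the interferon-stimulated response element, 2 copies of TTTC set 2 bases apart, searched on both strands, where overlapping matches run together.
APOBEC3H: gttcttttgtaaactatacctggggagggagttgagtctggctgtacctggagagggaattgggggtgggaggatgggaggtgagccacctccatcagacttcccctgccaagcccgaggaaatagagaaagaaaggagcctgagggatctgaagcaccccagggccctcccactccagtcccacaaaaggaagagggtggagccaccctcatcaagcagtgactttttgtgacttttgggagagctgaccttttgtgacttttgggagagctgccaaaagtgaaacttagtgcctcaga
IFITM3: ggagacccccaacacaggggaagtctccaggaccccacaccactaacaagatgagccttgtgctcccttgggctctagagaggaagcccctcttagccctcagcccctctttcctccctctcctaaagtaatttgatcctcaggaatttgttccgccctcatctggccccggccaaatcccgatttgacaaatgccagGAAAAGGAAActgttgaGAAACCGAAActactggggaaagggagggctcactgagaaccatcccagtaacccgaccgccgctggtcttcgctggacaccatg
BST2: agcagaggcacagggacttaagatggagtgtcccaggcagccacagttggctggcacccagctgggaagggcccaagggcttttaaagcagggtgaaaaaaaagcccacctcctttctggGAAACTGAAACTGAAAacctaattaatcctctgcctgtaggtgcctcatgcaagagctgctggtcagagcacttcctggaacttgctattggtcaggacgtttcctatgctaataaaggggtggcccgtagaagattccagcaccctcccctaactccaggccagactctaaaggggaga
HERC5: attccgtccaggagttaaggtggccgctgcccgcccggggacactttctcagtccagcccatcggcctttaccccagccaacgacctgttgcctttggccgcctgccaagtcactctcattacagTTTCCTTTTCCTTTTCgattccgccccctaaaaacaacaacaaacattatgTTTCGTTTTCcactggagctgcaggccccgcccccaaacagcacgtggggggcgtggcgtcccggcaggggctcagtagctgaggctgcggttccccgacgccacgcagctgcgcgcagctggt
The core was found in 3.57% of 35116 promoters of the table, and the window of APOBEC3H held no match. IFITM3 and BST2 held 2 matches each and HERC5 held 3. The window of SAMHD1, a restriction factor with a log2 fold change of -1.97 between P0 and P15, held no match and is not printed. Promoter windows were found for 20 restriction factors, of which 8 held the core, and for 14 genes of interferon signalling, of which 3 did. Of 12 windows of neighbouring genes on chromosome 22, 0 held it. These matches are letters in a window and were not tied to the expression values.

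The values are log2(CPM + 1), in which CPM is the count of a gene scaled to the total of its library. Estimated totals were 33.9 to 50.1 M counts per library, so that 1 count was worth 0.02 to 0.0295 CPM. Phases were compared with limma, with 13249 genes tested because their mean over the 16 libraries exceeded 1 CPM. A gene is said to rise or fall where its Benjamini-Hochberg adjusted p-value was below 0.05, and it was called where it also changed by at least 2-fold. APOBEC3B, APOBEC3C, APOBEC3F and APOBEC3G passed the filter, APOBEC3G through its levels at P0 to P7. APOBEC3D and APOBEC3H were fitted together with all 18386 genes with a mean above 0.1 CPM, and APOBEC3A, with a mean of 0.074 CPM, was below both filters.

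In late phase P15, APOBEC3G was nearly lost while APOBEC3B, APOBEC3C and APOBEC3F remained expressed. APOBEC3G is the member best known for mutating HIV reverse transcripts. Its log2 values were 6.35, 6.63, 6.33 and 6.35 in the 4 libraries of parental phase P0, and 5.28, 5.35, 5.21 and 5.23 in early phase P3. In intermediate phase P7 they were 5.73, 5.81, 5.95 and 5.75, and in late phase P15 they were 0.20, 0.33, 0.35 and 0.18. No pair of phases overlapped, and the libraries of P15 lay far below all others. On the linear scale the level was 84.7 ± 8.94 CPM (SD, n = 4) at P0, 37.5 ± 1.68 CPM at P3, 55.2 ± 3.96 CPM at P7 and 0.204 ± 0.073 CPM at P15. The mean CPM of P15 was thus 415-fold lower than that of P0 and 271-fold lower than that of P7, and it rested on 6 to 11 counts per library. In bulk RNA, fewer expressing cells and less RNA per cell cannot be told apart. Between P0 and P3 the mean CPM was 2.25-fold lower. Replicate 2 of P0 stood above the other 3 libraries of its phase, and the fall remained in every fit that left out 1 library.

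On the log2(CPM + 1) scale, which understates the change of a gene that ends near 0, APOBEC3G changed by -6.15 ± 0.07 (SE) between P0 and P15, with a limma adjusted p of 1.2e-28. This was the 24th lowest of 13249 log2 fold changes. The fall was spread unevenly over the phases, with -1.15 ± 0.07 from P0 to P3 (adjusted p = 2.9e-13), a rise of 0.54 ± 0.07 from P3 to P7 (adjusted p = 3e-07) and -5.55 ± 0.07 from P7 to P15 (adjusted p = 9.5e-28). The level at P7 was still below P0, by -0.61 ± 0.07 (adjusted p = 3.6e-08). Adding 0.1 to the CPM instead of 1 made the log2 fold change of P15 against P0 -8.15, and adding 5 made it -4.10.

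**Figure D1:**
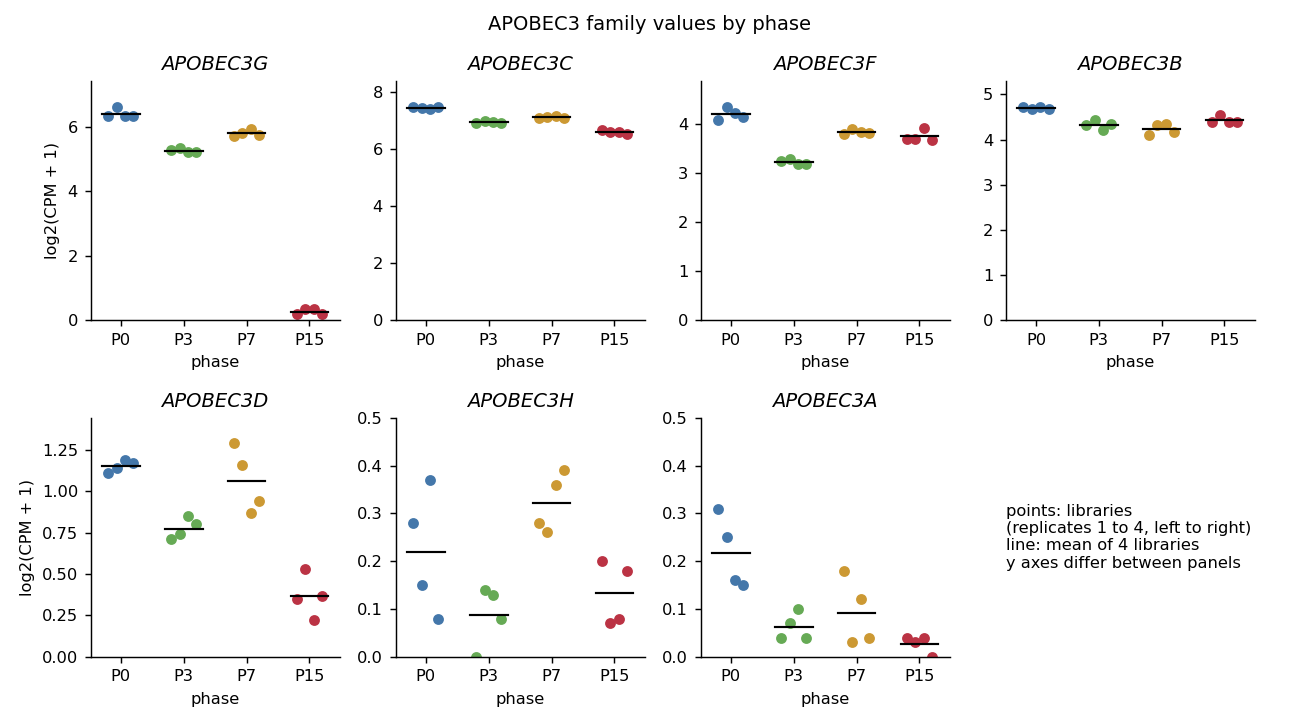
Expression of the 7 APOBEC3 genes in log2(CPM + 1), with 1 panel per gene, phases on the x axis, points for single libraries and a line for the mean of 4. APOBEC3G drops from a mean of 5.81 at P7 to 0.26 at P15, while APOBEC3B stays between 4.23 and 4.70 in all phases. The y axes start at 0 and differ between panels.

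APOBEC3C, a single-domain member and the most abundant one, fell from P0 to P3 and again from P7 to P15. Its log2 values were 7.47, 7.43, 7.38 and 7.46 at P0, 6.91, 6.96, 6.94 and 6.91 at P3, 7.09, 7.12, 7.13 and 7.06 at P7, and 6.66, 6.57, 6.58 and 6.51 at P15. No pair of phases overlapped, and the order of the phases was the same as for APOBEC3G. The mean was 172 ± 4.81 CPM (SD, n = 4) at P0 and 94.7 ± 4.11 CPM at P15, which is 55.05% of the P0 level. The log2 fold change was -0.50 ± 0.03 (SE) for P3 against P0 (limma adjusted p = 2.6e-12), 0.17 ± 0.03 for P7 against P3 (adjusted p = 0.00013) and -0.52 ± 0.03 for P15 against P7 (adjusted p = 2.8e-13). Against P0, the change at P15 was -0.86 ± 0.03 (adjusted p = 1.4e-17), short of the 2-fold threshold.

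APOBEC3F, a double-domain restriction factor, reached its lowest level in early phase P3 and not in P15. Its log2 values were 4.08, 4.35, 4.22 and 4.13 at P0, 3.25, 3.28, 3.19 and 3.19 at P3, 3.80, 3.89, 3.84 and 3.82 at P7, and 3.70, 3.69, 3.91 and 3.68 at P15. The libraries of P7 and P15 overlapped, and all other pairs of phases were apart. The mean CPM of P3 was 48.2% of that of P0, and the log2 fold change of -0.97 ± 0.07 (SE, limma adjusted p = 5.8e-12) lay just under the threshold for a call. The rise from P3 to P7 was 0.61 ± 0.07 (adjusted p = 4e-08). For P15 against P7 the difference was -0.09, with a 95% interval of -0.23 to 0.05 (adjusted p = 0.19). Replicate 3 was the highest library of P15, and without it this difference was -0.15 (adjusted p = 0.041).

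APOBEC3B, a nuclear member that has been studied as a mutator in tumours, varied least of the 4 tested members. Its log2 values were 4.72, 4.68, 4.73 and 4.67 at P0, 4.32, 4.43, 4.21 and 4.35 at P3, 4.10, 4.33, 4.34 and 4.16 at P7, and 4.38, 4.54, 4.38 and 4.4 at P15. The 4 libraries of P0 lay above the other 12, while P3 overlapped with both P7 and P15. The mean was 25.0 ± 0.53 CPM (SD, n = 4) at P0 and between 17.8 and 20.5 CPM in the later phases. APOBEC3B fell from P0 to P3 by 0.37 on the log2 scale (SE 0.06, limma adjusted p = 9.8e-06). It rose from P7 to P15 by 0.19 ± 0.06 (adjusted p = 0.0055), and at P15 it was still lower than at P0, by -0.28 ± 0.06 (adjusted p = 0.00022). The annotation places the antisense gene APOBEC3B-AS1 over the end of APOBEC3B, and it was listed at 0 in all 16 libraries.

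Of the 4 members tested, only APOBEC3G was called in any comparison, and it was lower each time. Between P0 and P3, 1 of 4 was called, where 4.47% of all tested genes were called in either direction. Between P3 and P7, 0 of 4 were called (1.84% of all genes), and between P0 and P7 also 0 of 4 (3.37%). By limma's adjusted p alone, with no fold threshold, these 2 comparisons gave 3 members (58.2% of all genes) and 4 members (62.1%). In the comparisons with late phase P15, 1 member was called for P15 against P7 (25.5% of all genes), P15 against P0 (23.6%) and P15 against P3 (27.1%). By adjusted p alone, P15 against P7 gave 3 members (86.4% of all genes) and P15 against P3 also 3 (87.2%). Without the fold threshold all 4 members fell between P0 and P3, where 37.3% of genes fell, and between P0 and P15, where 40.9% fell. The median log2 fold change of the 4 members was -0.74 for P3 against P0 and -0.65 for P15 against P0, beside -0.02 and 0.04 over all tested genes. These comparisons share the libraries of P0 or of P15 and are not independent of each other.

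**Figure D2:**
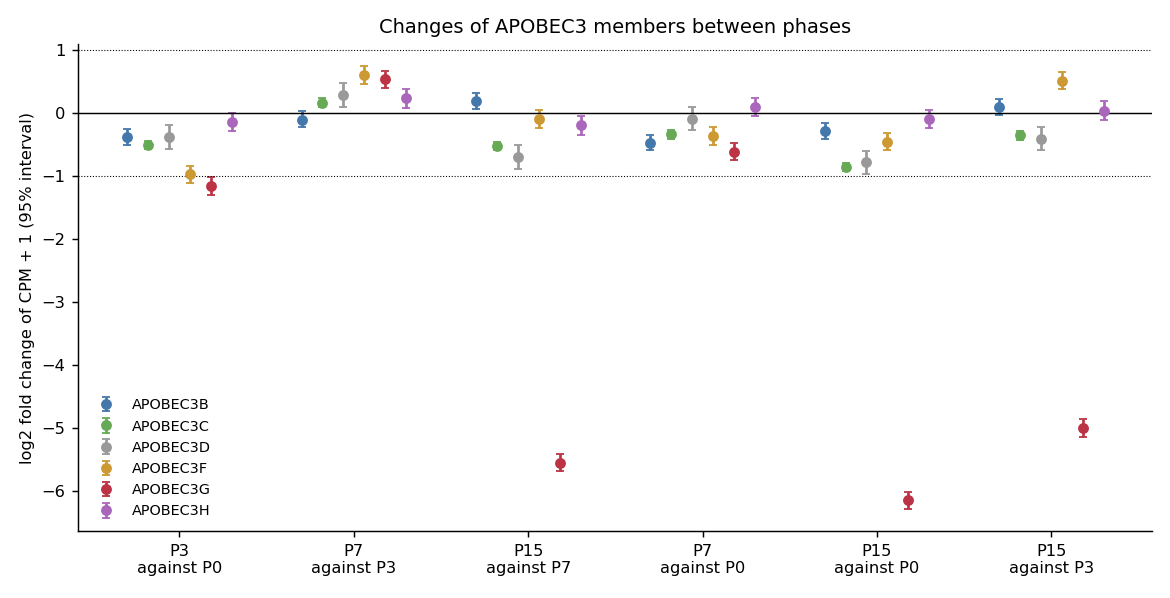
Log2 fold change of CPM + 1 for 6 members in the 6 pairs of phases, with 95% intervals from limma and dotted lines at a 2-fold change. The 3 comparisons with P15 put APOBEC3G at -5.55, -6.15 and -5.00, and all other values lie between -1.15 and 0.61.

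The change of APOBEC3G relative to the other expressed members was tested on the difference of log2 values within each library. From P7 to P15, APOBEC3G minus APOBEC3C moved from -1.29 ± 0.08 to -6.32 ± 0.11 (SD, n = 4), APOBEC3G minus APOBEC3F from 1.97 ± 0.09 to -3.48 ± 0.08, and APOBEC3G minus APOBEC3B from 1.58 ± 0.07 to -4.16 ± 0.09. Each of these had a two-sided exact permutation p of 0.029, the smallest that 4 against 4 libraries allow, and 0.033 after Benjamini-Hochberg adjustment over 9 tests. Between P3 and P7, APOBEC3G minus APOBEC3F differed by -0.07 (exact permutation p = 0.143), and the remaining 5 tests also gave 0.029. APOBEC3G thus changed unequally to each of the 3 other genes at the last step.

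The 3 remaining members were low. APOBEC3D, a double-domain member, had log2 values of 1.11, 1.14, 1.19 and 1.17 at P0, 0.71, 0.74, 0.85 and 0.80 at P3, 1.29, 1.16, 0.87 and 0.94 at P7, and 0.35, 0.53, 0.22 and 0.37 at P15. The libraries of P15 lay below all others, with 6 to 19 counts each against 44 to 45 at P0. The mean CPM was 4.16-fold lower at P15 than at P0. In the fit over 18386 genes APOBEC3D changed by -0.78 ± 0.09 (SE, limma adjusted p = 2.1e-08) from P0 to P15, by -0.38 ± 0.09 (adjusted p = 0.00099) from P0 to P3 and by -0.70 ± 0.09 (adjusted p = 1.5e-07) from P7 to P15. With a pseudocount of 0.1 the change from P0 to P15 was -1.79. P7 against P3 gave 0.29 ± 0.09 (adjusted p = 0.011), which was 0.22 (adjusted p = 0.062) without replicate 1 of P7. The annotation holds a readthrough gene that spans APOBEC3C and APOBEC3D, and members of the family share sequence, so a part of the low counts of APOBEC3D could belong to a neighbour.

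APOBEC3H, a single-domain member with stable and unstable haplotypes in humans, had log2 values of 0.28, 0.15, 0.37 and 0.08 at P0, 0.00, 0.14, 0.13 and 0.08 at P3, 0.28, 0.26, 0.36 and 0.39 at P7, and 0.20, 0.07, 0.08 and 0.18 at P15. These were 0 to 12 counts per library, and only P7 stood above P3 and P15. P7 against P3 gave 0.24 ± 0.07 (SE, limma adjusted p = 0.0084) and P15 against P7 gave -0.19 ± 0.07 (adjusted p = 0.018), and the second was no longer below 0.05 without replicate 4 of P7 (0.053) or replicate 2 of P15 (0.052). Neither APOBEC3D nor APOBEC3H was called in any comparison. The share of the 18386 genes called was 3.41% for P3 against P0, 1.37% for P7 against P3 and 19.9% for P15 against P7. It was 2.61% for P7 against P0, 18.6% for P15 against P0 and 21.1% for P15 against P3. On the log2(CPM + 1) scale the phase means of APOBEC3H were at most 0.32, so a 2-fold change was out of reach. APOBEC3D, with at most 1.15, could reach it only by near-complete loss. Their missing calls therefore say little. With a pseudocount of 0.1, APOBEC3D gave -1.79, -1.63 and -1.09 for P15 against P0, P7 and P3. APOBEC3H gave 1.14 for P7 against P3. These passed both thresholds, and the other changes of both genes stayed below 2-fold. APOBEC3A, a strong DNA mutator, had 4 to 9 counts per library at P0, 1 to 3 at P3, 1 to 5 at P7 and 0 to 1 at P15. Its mean was 0.164 ± 0.062 CPM (SD, n = 4) at P0 and at most 0.067 CPM later, and the libraries of P0 lay above those of P3 and P15. A count of 0 allows up to 3 counts, 0.06 to 0.0885 CPM depending on the library. Between 1 and 12 counts, 70.5 to 72.6% of the values of a library were even numbers, and the reads were paired, so 2 counts may often stand for 1 fragment and the limits, which cover counting error only, are then too narrow.

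Levels were compared between members per kilobase of exon, with the exons of protein-coding transcripts. In parental phase P0, APOBEC3C stood first with 65.1 ± 1.82 CPM per kb (SD, n = 4) and APOBEC3G next with 54.1 ± 5.71, and the highest library of APOBEC3G reached the lowest of APOBEC3C. APOBEC3B followed with 13.2 ± 0.28, APOBEC3F with 3.58 ± 0.316 and APOBEC3D with 0.484 ± 0.021 CPM per kb. APOBEC3H and APOBEC3A, at 0.147 and 0.111, overlapped. In late phase P15 the order was APOBEC3C with 35.8 ± 1.56, APOBEC3B with 10.8 ± 0.623 and APOBEC3F with 2.57 ± 0.22 CPM per kb. APOBEC3G had moved to 0.13 ± 0.047, where it overlapped with APOBEC3D at 0.116 ± 0.046 and APOBEC3H at 0.085 ± 0.045.

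The family sum went from 137 ± 5.96 CPM per kb (SD, n = 4) at P0 to 81.9 ± 2.2 at P3, 99.7 ± 4.22 at P7 and 49.6 ± 1.56 at P15, and the phases did not overlap. APOBEC3G held 39.5% of the sum at P0, 29.3% at P3, 35.4% at P7 and 0.262% at P15. Over the same phases the share of APOBEC3C went from 47.7% to 72.3% and that of APOBEC3B from 9.66% to 21.8%, although neither gene was higher at P15 than at P0. The length chosen for APOBEC3G matters, since retained introns make its annotated exons longer. With all annotated exons its share was 16.05% at P0 and 0.077% at P15, and at P3 it was then below APOBEC3B with 10.8% against 15.6%.

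**Figure D3:**
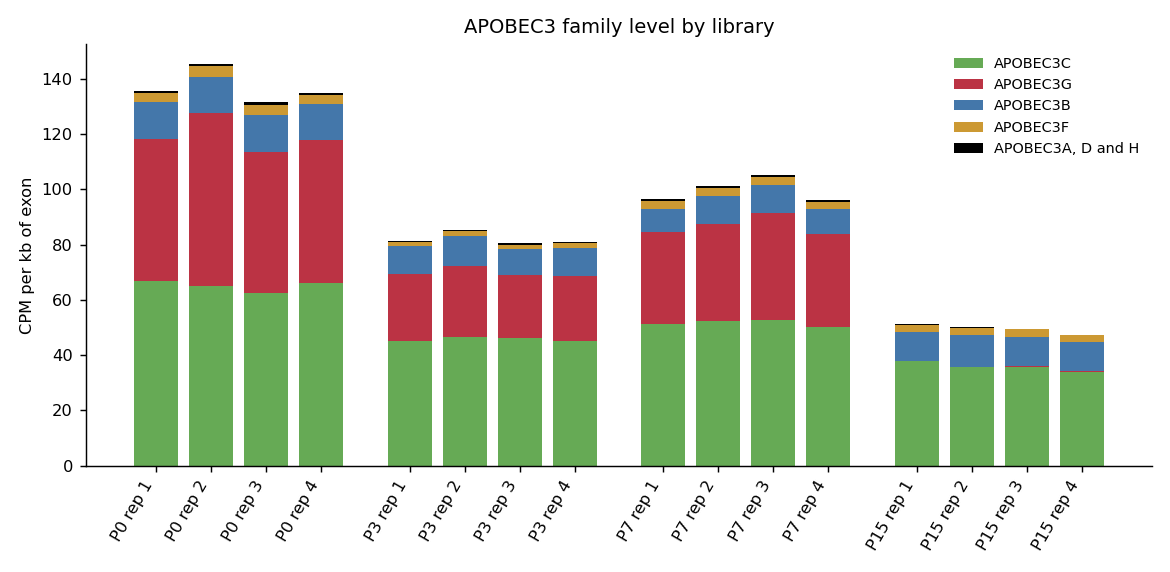
Summed level of the 7 APOBEC3 genes in each of the 16 libraries, in CPM per kb of exon, split by gene. The bars lie between 131 and 145 at P0 and between 47.5 and 51.2 at P15, where the segment of APOBEC3G is too thin to see.

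Between P0 and P15 most neighbouring genes were not called, and neither were most tested genes, of which 23.6% were called in either direction. In the region around the cluster 15 further genes were tested, and between P0 and P15 0 were called higher and 2 lower, where 11.5% of all tested genes were called lower. These were NPTXR, a neuronal pentraxin receptor, with -3.36 ± 0.08 (SE, limma adjusted p = 1.3e-21), and PDGFB, a growth factor, with -1.26 ± 0.05. NPTXR had mean log2 values of 4.37 at P0, 3.77 at P3, 4.71 at P7 and 1.01 at P15. The genes nearest to the cluster were CBX6, with a log2 fold change of -0.18 for P15 against P0, and CBX7, with 0.72, both subunits of Polycomb complexes. RPL3 (0.44), SYNGR1 (0.65), MGAT3 (0.66), DNAL4 (0.53), SUN2 (0.52), GTPBP1 (0.48), JOSD1 (0.26) and ATF4 (0.17) also rose, and TOMM22 (-0.18), TAB1 (-0.47) and MIEF1 (-0.41) fell. The median over the 15 neighbours was 0.26, beside 0.04 over all tested genes.

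**Figure D4:**
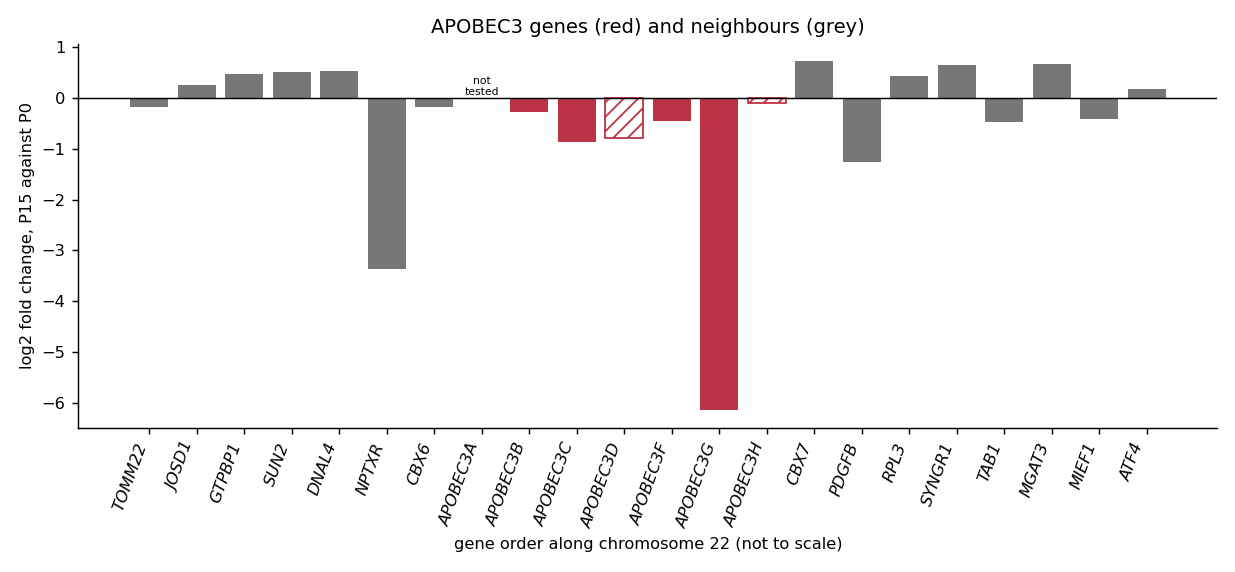
Log2 fold change of P15 against P0 for the APOBEC3 genes in red and their tested neighbours in grey, in their order along chromosome 22, with hatched bars for the members fitted with the lower filter. APOBEC3G at -6.15 stands between APOBEC3F at -0.45 and APOBEC3H at -0.09, and NPTXR at -3.36 is the lowest neighbour.

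Restriction factors outside the family, which block retroviruses or retroelements by other means, were followed as a list. Between P7 and P15, 0 of 23 tested rose by 2-fold or more and 12 fell by as much, where 12.1% of all tested genes were called lower, and the median was -1.18 beside 0.05 over all genes. Against P0, 11 of 23 were called lower at P15 (11.5% of all genes) and 0 higher. The largest changes against P0 were those of IFITM2 (-5.84), IFITM3 (-5.38) and IFITM1 (-5.36), membrane proteins that block the entry of viruses. IFITM2 and IFITM3 are near-identical, so their counts may be shared. BST2 (tetherin) changed by -5.32, TRIM22 by -4.88, MX2 by -4.36 and MX1 by -3.39, and SAMHD1, which hydrolyses dNTPs, by -1.97. BST2, TRIM22, MX1 and SAMHD1 were named after their values were seen.

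On the log2(CPM + 1) scale APOBEC3G had the lowest log2 fold change of P15 against P7 (-5.55) when set beside these 23 factors. It was followed closely by IFITM3 with -5.46, BST2 with -5.44 and IFITM2 with -5.26. The value of APOBEC3G was -7.54 with a pseudocount of 0.1 and -3.53 with 5, and the order of the list was not computed with these. In the earlier steps the list was mixed. Between P0 and P3, 1 was called higher (ZC3HAV1, 1.19) and 2 lower (IFITM1, -1.87, and MX1, -1.57), where 4.47% of all genes were called, and between P3 and P7 0 of 23 were called (1.84%). Without the fold threshold 13 of the 23 rose between P3 and P7 (30.3% of all genes), as APOBEC3C, APOBEC3F and APOBEC3G did.

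**Figure D5:**
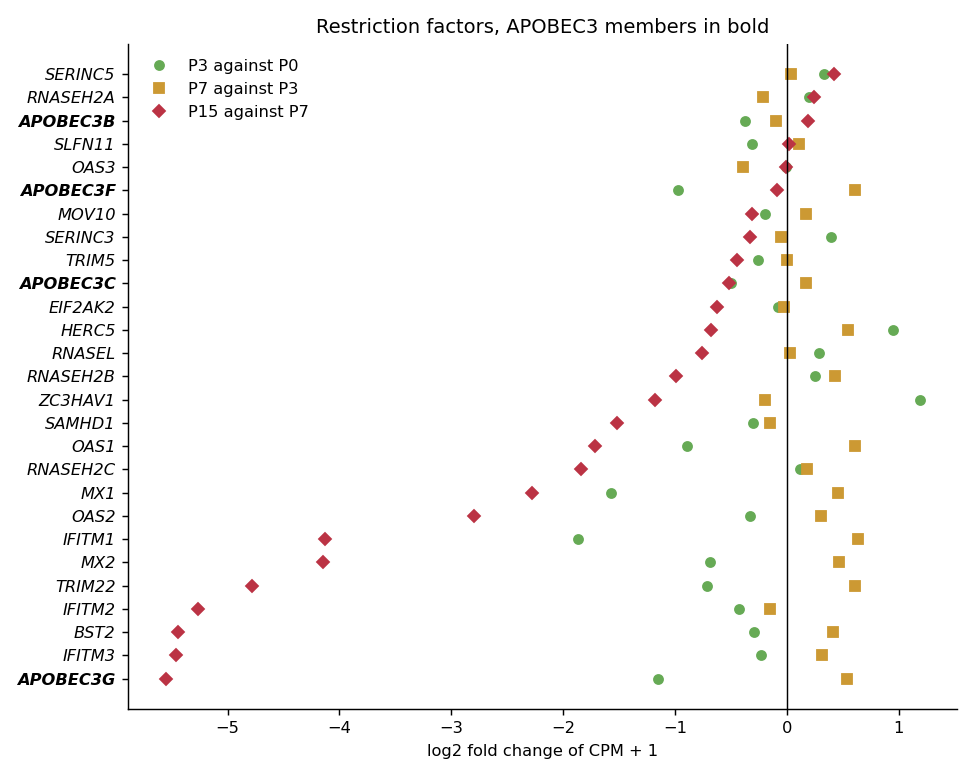
Log2 fold change of CPM + 1 for the 23 tested restriction factors and the 4 tested APOBEC3 members, in the 3 steps from P0 to P3, P3 to P7 and P7 to P15, ordered by the last step. APOBEC3G lies at the bottom with -5.55, beside IFITM3 at -5.46 and BST2 at -5.44, while APOBEC3F (-0.09) and APOBEC3B (0.19) lie near the top.

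Genes of interferon signalling, the pathway that induces many of these factors, moved less as a list. Between P0 and P15, 4 of 23 were called lower and 1 higher, where 23.6% of all genes were called, and the median was 0.10. TMEM173, which encodes the DNA sensor adaptor STING, changed by -4.18 ± 0.06 (SE), MAVS, the adaptor of the RNA sensors, by -1.81 ± 0.04, IRF7 by -1.59 ± 0.07 and IRF1, named after its values were seen, by -1.02 ± 0.05. IFIH1, an RNA sensor, rose by 1.00 ± 0.06. ISG15, a classical interferon-stimulated gene that was also named afterwards, gave 0.18 ± 0.06 (limma adjusted p = 0.0096).

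Among the other deaminases and related genes 5 of 12 tested were called higher at P15 than at P0 and 2 lower. Of all tested genes, 23.6% were called in either direction. CDADC1 (2.74 ± 0.06, SE), ADARB2 (2.06 ± 0.11) and the adenosine deaminase ADA (1.90 ± 0.09) rose. So did the tRNA deaminase ADAT2 (1.89 ± 0.09) and CDA (1.25 ± 0.14), the cytidine deaminase that inactivates gemcitabine. ADAT2 and CDA were named after their values were seen. ADARB2, with a mean of 1.3 CPM, passed the filter through P15, where its mean log2 value was 2.37 beside 0.31 at P0. AMPD3 (-2.82 ± 0.05) and ADARB1 (-1.01 ± 0.04), which edits glutamate receptor RNA, fell. APOBEC2 had 0 to 6 counts per library.

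For the genes that handle uracil in DNA, 1 of 22 tested was called higher and 1 lower between P0 and P15 (23.6% of all tested genes in either direction), with a list median of -0.14. The flap endonuclease FEN1 fell, with a log2 fold change of -2.70 ± 0.04 (SE). UNG, the main uracil-DNA glycosylase, named after its values were seen, changed by -0.40 ± 0.05 (limma adjusted p = 2.8e-08). Of the DREAM and B-MYB complex, known as a regulator of APOBEC3B, 1 of 13 was called, TFDP1, at -1.78 ± 0.03, beside the same 23.6% of all genes. Of the NF-kappaB subunits and kinases, also known upstream of APOBEC3B, RELB (1.62 ± 0.07) and NFKB2 (1.04 ± 0.04) rose and IKBKG (-1.37 ± 0.05) fell, 3 of 10 in all, again beside 23.6%. Of 10 proliferation genes 3 were called lower, PCNA (-2.07), MCM2 (-1.30) and MKI67 (-1.09), and 0 higher, where 11.5% of all genes were called lower.

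The genes whose values over the 16 libraries ran most alike to each member were sought among the other 13248 tested genes by Pearson correlation, as a description in which all points share their libraries and the 4 phases. For APOBEC3G the first 5 included S100A2 (r = 0.999), AMPD3, MX2 and HCAR1 (each 0.998). MX2 had mean log2 values of 4.78, 4.09, 4.56 and 0.41 at P0, P3, P7 and P15, and S100A2 had 8.95, 8.30, 8.69 and 5.16. For APOBEC3C the first 5 included C5orf46 (0.992), CD69 (0.99) and CD70 (0.989). For APOBEC3F, with its lowest level at P3, they were TPCN1 (0.973), THEM6 (0.969), DNM1 (0.966), CCDC92 (0.965) and TFPI (0.964). For APOBEC3B they were AK3 (0.919), UBAP1, GNE, KLHL36 and ARHGEF39 (0.904). Between members r was 0.887 for APOBEC3C with APOBEC3G, 0.589 for APOBEC3B with APOBEC3F, 0.547 for APOBEC3C with APOBEC3F, 0.462 for APOBEC3B with APOBEC3C, 0.175 for APOBEC3F with APOBEC3G and 0.113 for APOBEC3B with APOBEC3G.

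The label of the cells was set beside 15 urothelial and epithelial markers, of which 8 were tested. Their summed level was 2207 to 2279 CPM at P0, 2431 to 2565 CPM at P3, 1782 to 1928 CPM at P7 and 697 to 776 CPM at P15. Between P0 and P15, 7 of 8 were called lower (11.5% of all tested genes), such as KRT19 (-6.41), KRT7 (-6.26) and GATA3 (-3.93), and KRT18 rose by 0.43. CDH1, KRT5, UPK1B, UPK3A and TP63 were at or near 0 in every phase, including P0. UPK1A, a uroplakin below the filter, had mean log2 values of 0.10, 0.34, 0.67 and 1.57 at P0, P3, P7 and P15, and the phase means of UPK2 lay between 0.62 and 0.87. The summed level was lower at P15 than at P7, as APOBEC3G was. From P0 to P3 the sum was higher and from P3 to P7 lower, opposite to APOBEC3G. KRT7, KRT8 and KRT18, with means of 650, 538 and 520 CPM, weigh most in this sum, and single markers differed from it. Of the 8 tested, 3 rose and 5 fell from P0 to P3, and 2 rose and 5 fell from P3 to P7. The 2 that rose from P3 to P7, GATA3 (0.17) and PPARG (0.80), fell from P0 to P3 and from P7 to P15, as APOBEC3G did. The part of these markers in the change of APOBEC3G was not tested. Of the leukocyte and endothelial markers, checked because blood cells are known to express several APOBEC3 genes, 13 of 15 were in the table and summed to 12.5 to 16.8 CPM at P0, 2.5 to 3.05 CPM at P3, 5.75 to 6.98 CPM at P7 and 0.83 to 1.45 CPM at P15. PTPRC, the pan-leukocyte antigen, had 0 counts in 15 libraries and 2 in the other one. CD14 (2.96, 1.56, 2.77 and 0.08 as mean log2 value in P0, P3, P7 and P15) and CDH5 (2.74, 0.28, 0.00 and 0.18) made up most of the sum at P0. Sample titles end in numbers of which 5 occur on 2 libraries each, and the labels do not say what they mark, so no batch was fitted.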

How the data were processed

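RNA-sequencing values of 16 libraries of T24 cells and the GRC1 line were used, 4 per phase. Per the study's methods and the submitters' processing notes, the authors aligned paired-end reads with STAR 2.6.1a to GRCh38 and counted them on genes with featureCounts. The deposited table holds log2(CPM + 1) with 2 decimals. The quantile normalization and median centring of the methods are not carried by these values. The annotation release, the strand setting and the treatment of multimapping reads are not given in the sources used here. Reads shared between APOBEC3 paralogs could therefore be lost or split.

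Library totals come from the step between the lowest values of a library. The comparisons used limma 3.58.1 (R 4.3.3) on all 16 libraries, with a coefficient for each phase, a variance trend and Benjamini-Hochberg adjustment over 13249 genes with a mean above 1 CPM, or 18386 genes with a mean above 0.1 CPM for APOBEC3D and APOBEC3H. The main fit was tested on simulated data. Exon lengths came from GENCODE version 44. Python 3.11.15, numpy 2.4.6, pandas 2.3.3, scipy 1.17.1 and matplotlib 3.10.9 were used.

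The members, lists and tests were chosen with earlier results of these data known. Named genes are the members, their relatives APOBEC1, APOBEC2 and APOBEC4, the tested neighbours, from each other list the called genes with the 3 largest changes of P15 against P0 per direction, and the 5 genes most correlated with each member above 1 CPM. APOBEC1 and APOBEC4 were not analysed here, and some genes of this rule are not reported. Replicates are numbered as in the sample descriptions, which depart from the titles for 14 libraries. Alternatives were other pseudocounts, filters and normalizations, replicate blocks, no variance trend, pairs of phases alone, no fold threshold, other exon lengths and each library left out in turn.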

Additional observations from a re-analysis of the deposited data

Results flagged for a closer look

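In 60 groups of 4 libraries (15 genes whose values are given, in 4 phases), 7 had a highest or lowest library whose gap to its nearest neighbour exceeded the 95% critical value of Dixon's test as a share of the range of the group, where chance gives about 1 in 20, or 3.0. For APOBEC3G the highest library was replicate 2 of P0 (0.93 of the range), for APOBEC3B replicate 2 of P15 (0.87) and for APOBEC3F replicate 3 of P15 (0.91). Outside the family these were replicate 4 of P3 as the lowest for AMPD3 (0.92), replicate 4 of P0 as the highest for CD14 (0.92), replicate 4 of P15 as the highest for CDH5 (0.88) and replicate 4 of P15 as the lowest for NPTXR (0.84).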

How the results depend on the processing

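Of 954 log2 fold changes of members under the alternatives, 945 kept their direction and their side of an adjusted p of 0.05. With quantile normalization APOBEC3B gave -0.01 (limma adjusted p = 0.85) for P15 against P3 in place of 0.10, 0.11 (0.087) for P15 against P7, and APOBEC3F gave -0.22 (0.0025) for P15 against P7. With a pseudocount of 0.1 APOBEC3D gave 0.54 (0.05) for P7 against P3. The other changes came from leaving out 1 library: APOBEC3H in P3 against P0 gave -0.18 (0.046) without replicate 4 of P0, and those of APOBEC3D, APOBEC3F and APOBEC3H stand beside their values. APOBEC3G gave -8.15 to -4.10 for P15 against P0, depending on the pseudocount. The causes were not tested.

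The number of members called for P3 against P0 was 2, with APOBEC3F, under a pseudocount of 0.1, and 1 to 2 when libraries were left out, 2 without replicate 1 of P0. With no fold threshold, where 58.2 to 87.2% of all genes passed, it was 4 for P3 against P0, 3 for P7 against P3, 3 for P15 against P7, 4 for P7 against P0, 4 for P15 against P0 and 3 for P15 against P3. A filter of 1 CPM in all 16 libraries left APOBEC3G untested, so that 0 members were called for P3 against P0, P15 against P7, P15 against P0 and P15 against P3. APOBEC3A was fitted only with no filter, over 33331 genes, with -0.19 (limma adjusted p = 0.00027) for P15 against P0 and -0.15 (0.003) for P3 against P0.

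In CPM, APOBEC3C held 57.3, 64.8, 60.8 and 73.8% of the family sum at P0, P3, P7 and P15 and APOBEC3G 28.1, 20.1, 24.6 and 0.158%. Per kilobase of exon these were 47.7, 55.9, 51.7 and 72.3% and 39.5, 29.3, 35.4 and 0.262%. With all annotated exons, an alternative chosen after seeing the data, APOBEC3C held 66.4, 70.6 and 69.2% at P0, P3 and P7 and APOBEC3G 16.05, 10.8, 13.8 and 0.077%.

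Neither the numbers of the descriptions nor those of the titles paired the libraries. Deviations from the phase means correlated at -0.15 to 0.22 for libraries with the same description number (24 pairs) and at -0.12 to 0.22 for the same title number, and 5 and 6 of 16 libraries correlated best with their own number. With the replicate block, the members called for P3 against P0 stayed at 1 and APOBEC3G at -1.15, and no call changed.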
